A study of Mus musculus with 12 samples.

Results

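The genes described here carry the names of the constitutive proteasome subunits and their partners: the Psma, Psmb, Psmc, Psmd, Psme and Psmf genes, without the immunoproteasome subunits Psmb8, Psmb9 and Psmb10 and the PA28 activator subunits Psme1 and Psme2. They were chosen by gene name, which gave 49 of the 55681 probes on the array and 40 genes. Of these, 39 were tested among 23913 features. The remaining gene, Psmb11, encodes a catalytic subunit of the thymus, and its probe was well above background on 1 of 12 arrays, the first of control siRNA with LPS. Psmc3ip fits the naming rule only by its symbol, since it encodes a partner of a meiotic recombination protein and not a proteasome protein, and it is kept and named apart. RNA of RAW264.7 cells, an established mouse macrophage line, was hybridised to 12 single-colour Agilent arrays in 4 groups of 3. Cells were given a non-targeting control siRNA or an siRNA to lincRNA-Tnfaip3 for 24 h and were then kept for 4 h without or with E. coli lipopolysaccharide (LPS, 1 µg/ml), a bacterial cell wall component. The labels do not say whether the arrays of a group came from separate cultures, so the p-values measure the spread between these arrays, which may be technical, and 3 arrays per group limit the precision of every value. Signals are log2 values relative to the 75th percentile of the same array. Where a probe is called bright or dim, this describes its signal and not the amount of RNA of its gene beside another.

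The proteasome degrades proteins tagged with ubiquitin. Its 20S core is a barrel of outer alpha rings and inner beta rings, with the peptide-cutting sites on the beta subunits Psmb5, Psmb6 and Psmb7, and the 19S cap recognises, unfolds and feeds substrates into the barrel. In macrophages it also removes IkB, the inhibitor that holds NF-kB in the cytoplasm, and interferon is known to make cells replace the constitutive catalytic subunits by Psmb8, Psmb9 and Psmb10 in newly built particles.

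All arrays gave usable signals, with 27198 to 36391 probes well above background, and the lowest numbers, 27198 and 29452, belonged to arrays 1 and 2 of control siRNA. Those arrays made up slide 1, slide 3 held replicates 2 and 3 of the lincRNA siRNA given LPS, and slide 2 held the other 8 arrays, so fits that include the slide draw on slide 2 alone. All 6 LPS response genes on a fixed list (Il6, Tnf, Il1b, Nos2, Cxcl10 and Ifit1) rose with LPS in both siRNA states (limma, lowest log2 change 1.28, adjusted p = 0.0290, for Nos2 in lincRNA-siRNA cells). Of 8 macrophage markers, 7 were well above background on all 12 arrays. Of 12 markers of other cell types, 11 were on the array under the listed symbol, of which 3 (Cd3e, Cd79a and Pecam1) were well above background on all 12 arrays, 6 on some and 2 (Epcam and Cdh1) on none. No probe carried the name of the targeted lincRNA, so its knockdown could not be checked. Arrays 2 and 3 of the lincRNA siRNA without LPS stood apart from array 1 of that group in interferon-type genes, by unequal amounts. Mx1, an antiviral protein, had log2 signals of -3.35 and -2.95 there, -7.26 on array 1, and -6.14, -6.39 and -7.59 with control siRNA. Ifit1 had 0.02 and 0.40 there, -0.65 on array 1, and -0.55, 0.19 and -0.37 with control siRNA, so array 2 lay among the controls. The main results that rest on this group are also given without arrays 2 and 3, which leaves 1 array in it, assumed to vary like the other groups.

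The constitutive subunits were steady across the experiment. The range of a gene over the 12 arrays had a median of 0.51 on the log2 scale among the 39 genes and of 0.95 among the 23844 features with a value on every array, and 37 of 39 genes stayed within a range of 1, against 52.5% of those features. Among features with a mean signal between the lowest and the highest of these genes (the signal range, drawn without Psma8, whose probe was far dimmer than the rest), the median range was 0.61 and 84.9% stayed within 1. Psma2, an alpha-ring subunit, was the steadiest (range 0.22, from 7.60 to 7.82). The widest range belonged to Psmd14, the lid subunit that cuts ubiquitin chains off substrates (1.19), followed by Psmd10 (1.02), an assembly chaperone, also known as gankyrin. Across arrays, the median deviation of the 39 genes from their own means was lowest on array 2 of control siRNA with LPS (-0.12) and highest on array 1 of the lincRNA siRNA with LPS (0.14). Over all features it was -0.01 and 0.07 on these arrays, and the latter was also the highest of the 12 arrays.

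**Figure D1:**
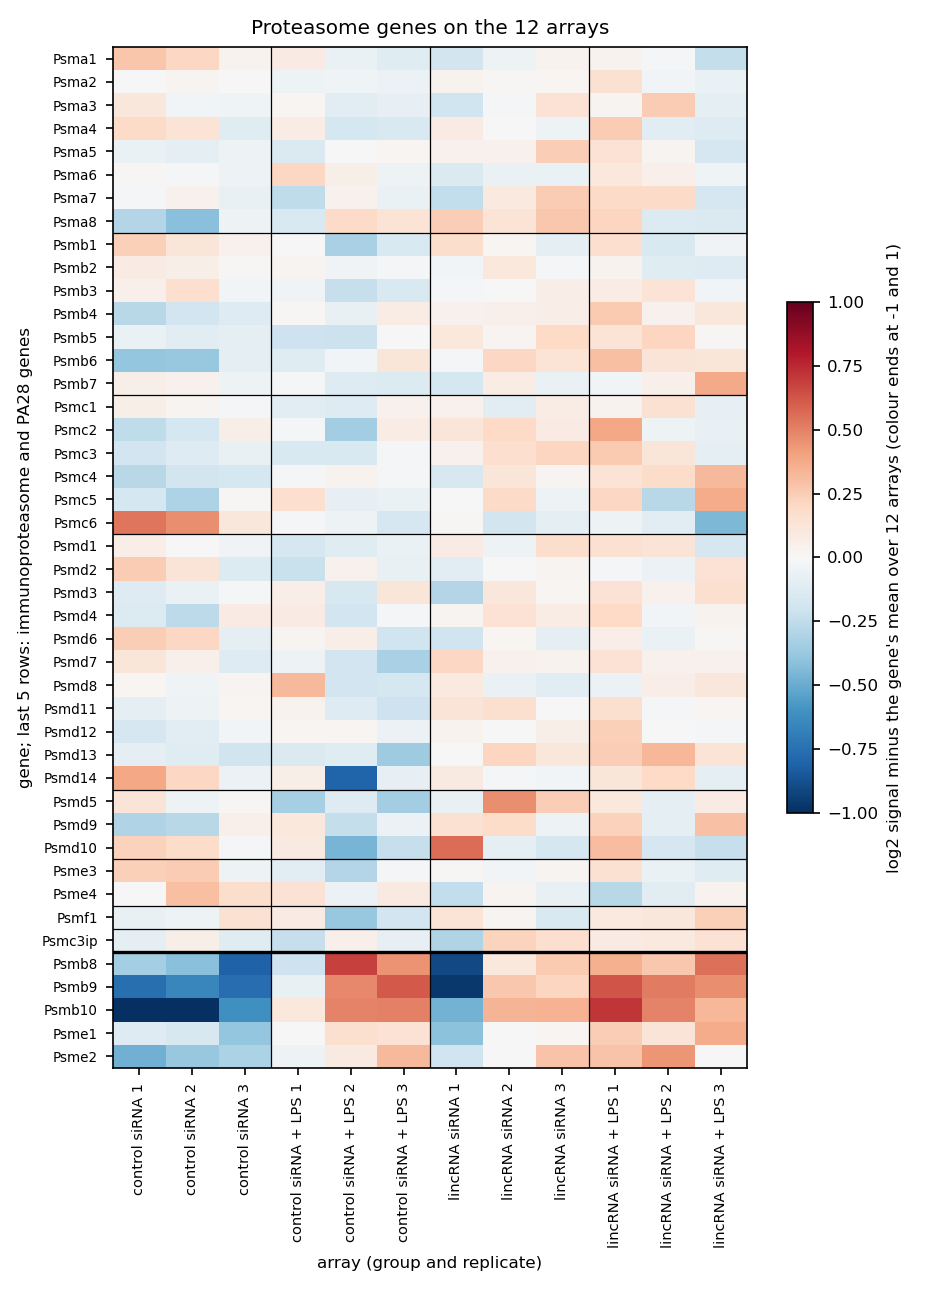
Log2 signal of 39 constitutive proteasome genes and, below the thick line, 5 immunoproteasome and PA28 genes (rows) on the 12 arrays (columns), each gene centred on its mean over the arrays; thin lines separate subunit classes and groups. The constitutive genes stay paler than Psmb8, Psmb9 and Psmb10, which are lowest on the arrays of control siRNA and, for Psmb8 and Psmb9, on array 1 of the lincRNA siRNA. Psmd14 is darkest on array 2 of control siRNA with LPS.

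The first question was whether LPS changed these genes. None passed: 0 of 39 reached an adjusted p under 0.05 in control-siRNA cells (limma, Benjamini-Hochberg over all features), where 5.26% of all features did. In lincRNA-siRNA cells it was 0 of 39 against 1.81%, and in the average over both siRNAs 0 of 39 against 8.28%. At an unadjusted p under 0.05 there were 4, 0 and 4 members in the same order, which is 10.3%, 0% and 10.3% of them against 24.4%, 10.1% and 24.3% of all features. The median log2 change of the members was -0.06 in control-siRNA cells and 0.03 in lincRNA-siRNA cells, beside 0.04 and -0.01 over all features. The estimate was above 0 for 13 and 21 of 39 members, against 53.9% and 47.4% of all features. In the members' signal range it was above 0 for 34.6% and 39.2% of features. For the members it was 17 in control-siRNA cells with normexp background correction, and 35 in lincRNA-siRNA cells with the slide in the fit.

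In the fit without the slide, most intervals were narrow for the probe used. They were taken for each gene alone and measure the spread between these arrays, so they do not bound the change in cells. The 95% interval of the LPS change lay within 2-fold in either direction for 39 of 39 members in each siRNA state, against 63.3% and 70.3% of all features and 90.9% and 94.7% of features in the members' signal range. Within 1.5-fold it lay for 34 and 38 members, against 36.4% and 45.1% of all features and 63.0% and 75.3% of those in that signal range. The 5 wider intervals in control-siRNA cells belonged to Psma8, Psmc6, Psmd5, Psmd10 and Psmd14, and the 1 in lincRNA-siRNA cells to Psmd10. In control-siRNA cells that of Psmd14 reached -0.93 and that of Psmd10 -0.84. Second probes were not counted, and that of Psmc1 had a change of 0.38 ± 0.19 there. With the slide as a block, Psmd14 had a change of -0.22 ± 0.31 in control-siRNA cells. Psmd10 had 0.22 ± 0.31 and Psmc2 0.25 ± 0.17 in lincRNA-siRNA cells. The intervals of that fit were not counted, so these shares hold only without the slide.

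**Figure D2:**
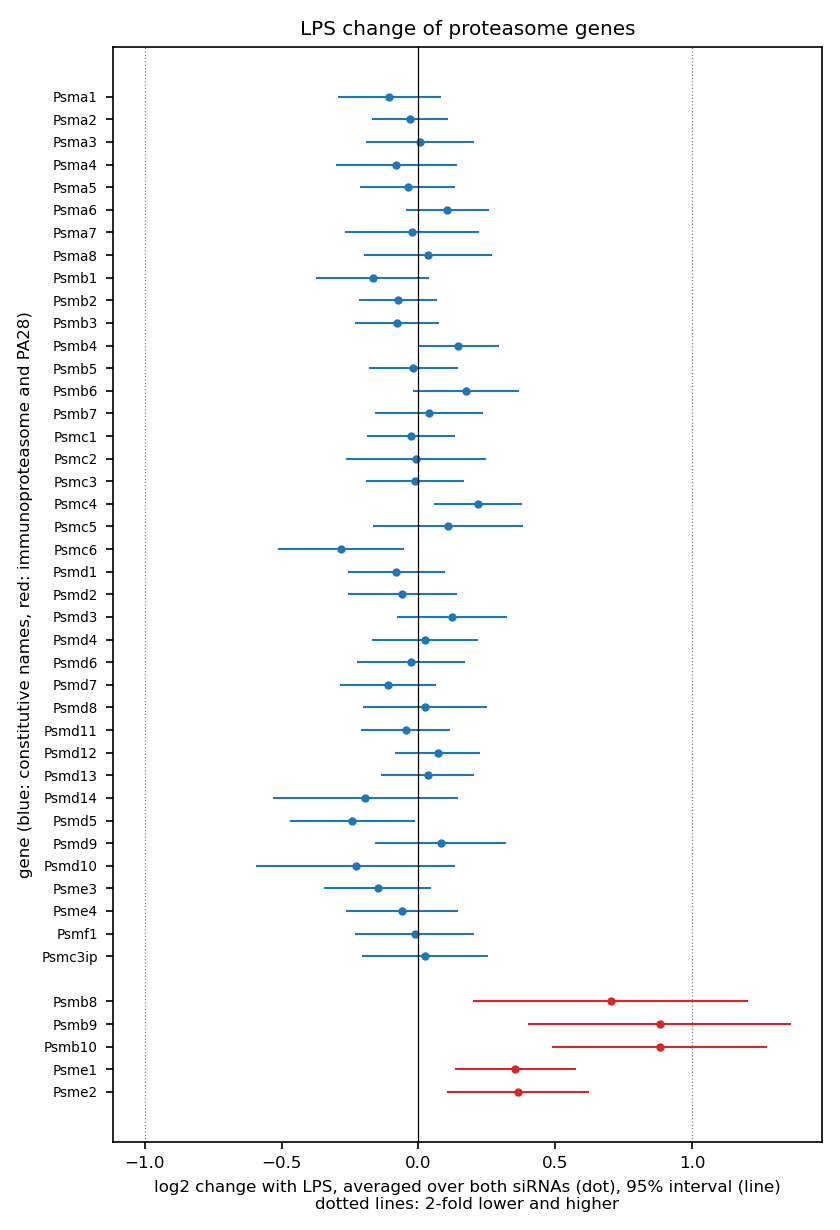
Log2 change with LPS averaged over both siRNAs (dots) with its 95% interval (lines) for 39 constitutive proteasome genes (blue) and 5 immunoproteasome and PA28 genes (red), from 12 arrays; dotted lines mark a 2-fold change in each direction. The blue intervals all lie between the dotted lines, and the red dots lie between 0.35 and 0.88.

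In the beta ring, the constitutive catalytic subunits gave no called change with LPS. Psmb5, which carries the chymotrypsin-like site, had log2 signals of 8.25, 8.21 and 8.23 with control siRNA, 8.11, 8.10 and 8.33 after LPS, 8.42, 8.34 and 8.52 with the lincRNA siRNA, and 8.45, 8.54 and 8.33 with both. The LPS arrays of control siRNA fell on both sides of their controls, and the lincRNA-siRNA arrays without LPS all lay above those of control siRNA. Its LPS change was -0.05 ± 0.10 (SE, n = 3 arrays per group) in control-siRNA cells and 0.01 ± 0.10 in lincRNA-siRNA cells.

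Psmb6, the caspase-like subunit, read 7.30, 7.31 and 7.60 with control siRNA and 7.57, 7.66 and 7.81 after LPS. With the lincRNA siRNA it read 7.67, 7.89 and 7.83, and 7.99, 7.82 and 7.80 with LPS as well. Only the third control array reached the signals of the other groups, and it was also the only one of the 3 on slide 2. The LPS change of 0.28 ± 0.12 in control-siRNA cells did not pass (limma, adjusted p = 0.195) and was 0.08 when the slide was fitted as a block.

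Psmb7, the trypsin-like subunit, read 4.88, 4.87 and 4.77 with control siRNA, 4.80, 4.69 and 4.69 after LPS, 4.65, 4.90 and 4.76 with the lincRNA siRNA, and 4.80, 4.87 and 5.20 with both. Only array 3 of the last group stood above the rest, and that group overlapped the lincRNA siRNA without LPS. Its LPS changes were -0.11 ± 0.12 and 0.19 ± 0.12. Of the structural beta subunits, Psmb4 had log2 changes of 0.20 and 0.09, and Psmb1 of -0.29 in control-siRNA cells, where all LPS arrays were lower (adjusted p = 0.196). Across the 7 beta genes tested, the median LPS change was -0.06 and 0.05.

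Their interferon-inducible counterparts behaved differently on the same arrays. Psmb10, which takes the place of Psmb7, read 4.39, 4.58 and 5.00 with control siRNA and 5.72, 6.10 and 6.11 after LPS, with no overlap. It rose by 1.32 ± 0.25 in control-siRNA cells (limma, adjusted p = 0.0145) and by 0.88 ± 0.17 in the average (adjusted p = 0.0127). The slide block gave 0.98 (adjusted p = 0.421) and 0.81 (adjusted p = 0.187), and leaving out 1 of 4 arrays (control siRNA 1 or 2, control siRNA with LPS 2 or 3) ended the call in control-siRNA cells (adjusted p = 0.0638 to 0.0705). Without both arrays of slide 1 the average was 0.71 (adjusted p = 0.162).

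Psmb9, the counterpart of Psmb6, rose in the average by 0.88 ± 0.21 (adjusted p = 0.0327), a call lost under the slide block (0.95, adjusted p = 0.315) and when any 1 of 7 arrays was left out (control siRNA 1 or 2, control siRNA with LPS 2 or 3, or any of the lincRNA siRNA with LPS; adjusted p = 0.0640 to 0.0891). Psmb8, the counterpart of Psmb5, did not pass (0.70 ± 0.22, adjusted p = 0.0871), nor did the PA28 subunits Psme1 (0.35 ± 0.10, adjusted p = 0.0553) and Psme2 (0.36 ± 0.11, adjusted p = 0.0852). Among the other Psme2 probes, 1 had a change of 0.26 (adjusted p = 0.177) and 1 rose by 1.64 (adjusted p = 0.00928); the latter was dim and carries coordinates that span 219297 bases. In lincRNA-siRNA cells none of these 5 genes passed. There, array 1 without LPS read 2.00 for Psmb9 while arrays 2 and 3 read 3.23 and 3.18, beside 3.60, 3.48 and 3.42 with LPS. Without arrays 2 and 3, when the 1 array left takes its spread from the other groups, Psmb9 passed with LPS in lincRNA-siRNA cells (adjusted p = 0.0216), and the change there was 1.29 for Psmb8 (adjusted p = 0.116) and 0.99 for Psmb10 (adjusted p = 0.140). The averages over both siRNAs were then 1.28, 1.06 and 1.15 for Psmb9, Psmb8 and Psmb10 (adjusted p = 0.00227, 0.0205 and 0.00622), and Psme1 passed as well (0.50, adjusted p = 0.0244). In that fit 0 of 39 constitutive genes passed with LPS in lincRNA-siRNA cells, against 2.59% of all features.

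The difference between each inducible subunit and its constitutive counterpart was then taken within each array and compared over arrays, permuting LPS labels within each siRNA (exact test, two-sided, 400 arrangements, smallest possible p = 0.005, adjusted over 3 pairs). With LPS the signed difference Psmb8 minus Psmb5 rose by 0.72 (1.65-fold, exact p = 0.015, adjusted 0.02). Psmb9 minus Psmb6 rose by 0.71 (1.63-fold, exact p = 0.005, adjusted 0.015) and Psmb10 minus Psmb7 by 0.84 (1.79-fold, exact p = 0.02, adjusted 0.02). Relative to the control-siRNA mean, Psmb9 minus Psmb6 was 0.07, 0.17 and -0.23 with control siRNA, 0.49, 0.95 and 0.93 after LPS, -0.51, 0.50 and 0.51 with the lincRNA siRNA, and 0.77, 0.83 and 0.78 with both. Every LPS array lay above every unstimulated array of the same siRNA for this pair. For the other pairs this held in control-siRNA cells, and in lincRNA-siRNA cells for 2 of 3 LPS arrays.

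The change was 0.88, 0.79 and 1.43 in control-siRNA cells and 0.56, 0.63 and 0.25 in lincRNA-siRNA cells, in the order Psmb8, Psmb9, Psmb10, and the difference between the siRNAs was not tested for pairs. Without arrays 2 and 3 of the lincRNA siRNA the pair changes were 1.08, 1.05 and 1.06 (exact p = 0.0125, 0.0125 and 0.025, 80 arrangements). Psmb10 minus Psmb7 missed the threshold without the first array that had the lincRNA siRNA and LPS (0.75, exact p = 0.05) and without arrays 1 and 2 of control siRNA (0.64, exact p = 0.05).

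**Figure D3:**
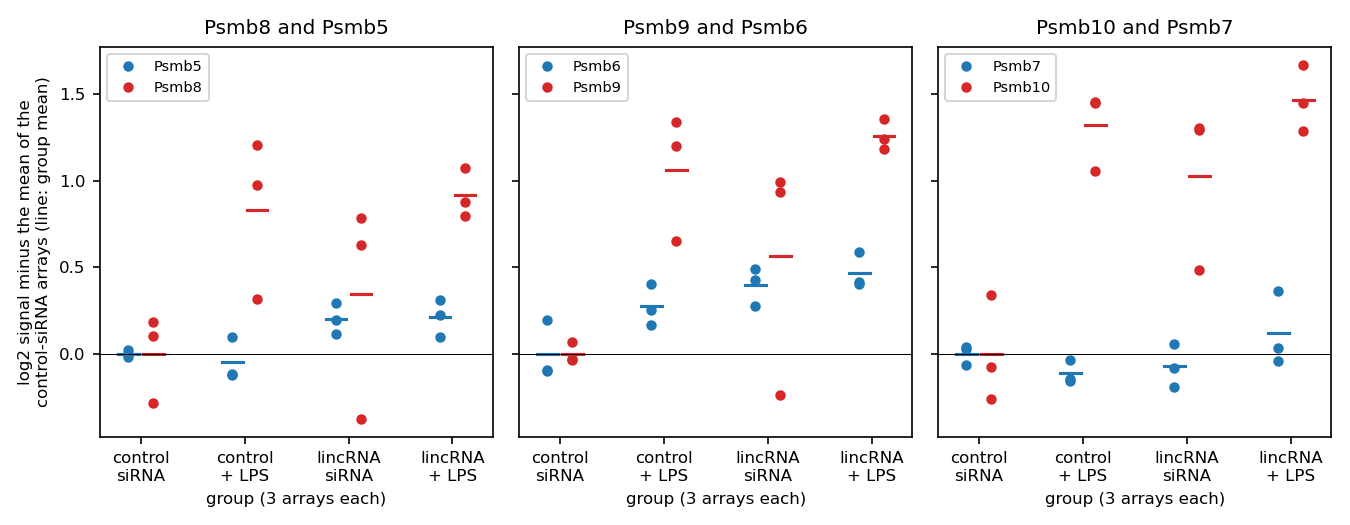
Log2 signal minus the mean of the 3 control-siRNA arrays for each constitutive catalytic subunit (blue) and its inducible counterpart (red), 1 point per array and a line at each group mean, in 4 groups of 3 arrays. The red points of both LPS groups lie above every red point of control siRNA in their panel, the blue group means stay closer to 0, and in each panel 1 red point of the lincRNA siRNA lies below the others of its group.

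The members of such a pair are related in sequence, and a probe of Psmb5 was set beside that of Psmb8. The comparison does not cover the Psmb5 probe used above, nor the probes of Psmb6 and Psmb9 or of Psmb7 and Psmb10. Whether those probes tell the genes apart was not tested. The lines give a 60-base probe of Psmb5 (mm9, chr14:55233161-55233220, minus strand) and the probe of Psmb8 (mm9, chr17:34337771-34337830, plus strand), 5′ to 3′ as deposited. Over 50 aligned bases 31 match and 19 differ, and capitals mark the differing bases. This Psmb5 probe was not the brighter one used above, and its own LPS changes were -0.02 and 0.06.
Psmb5: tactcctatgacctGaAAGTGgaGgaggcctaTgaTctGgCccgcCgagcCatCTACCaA
Psmb8: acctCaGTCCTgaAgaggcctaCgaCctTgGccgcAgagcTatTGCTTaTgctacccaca

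In the alpha ring, which gates the entry to the barrel, 0 of 8 genes passed in any comparison, and the median LPS change was -0.07 in control-siRNA cells and -0.0025 in lincRNA-siRNA cells. Psma8, the alpha subunit of the testis, was the dimmest of the 39 probes. It read -2.68, -2.81 and -2.44 with control siRNA, -2.54, -2.20 and -2.25 after LPS, -2.14, -2.25 and -2.12 with the lincRNA siRNA, and -2.18, -2.53 and -2.53 with both. Its LPS changes of 0.31 ± 0.15 and -0.24 ± 0.15 were the highest and the lowest among the members in the respective siRNA state. The interaction of -0.55 ± 0.21 did not pass (limma, adjusted p = 0.891), and with the slide as a block the changes were 0.11 and -0.0044. Among the alpha subunits of the standard particle the LPS estimates in control-siRNA cells began at -0.21 (Psma1).

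Among the 6 ATPases of the 19S base, which unfold substrates, Psmc4 and Psmc6 differed most with LPS by the probe used, in opposite directions. A second Psmc1 probe had larger changes than Psmc4 in control-siRNA cells (0.38 ± 0.19) and in the average (0.23 ± 0.13). In lincRNA-siRNA cells that probe had 0.08 ± 0.19. Psmc6 read 4.12, 4.05 and 3.70 with control siRNA, 3.57, 3.53 and 3.41 after LPS, 3.60, 3.40 and 3.49 with the lincRNA siRNA, and 3.53, 3.47 and 3.13 with both. The 2 highest readings were those of slide 1, and the control array on slide 2 (3.70) lay nearer to the LPS arrays. The LPS change in control-siRNA cells was -0.45 ± 0.14 (limma, adjusted p = 0.106), the lowest adjusted p of any member there, and it was -0.19 with the slide as a block. In lincRNA-siRNA cells it was -0.12 ± 0.14.

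Psmc4 read 4.63, 4.73 and 4.74 with control siRNA, 4.89, 4.95 and 4.90 after LPS, 4.75, 5.03 and 4.94 with the lincRNA siRNA, and 5.05, 5.10 and 5.24 with both. The LPS arrays lay above the unstimulated ones in both siRNA states, and how many of all features did so in both was not counted. The changes were 0.21 ± 0.10 and 0.22 ± 0.10, and their average of 0.22 ± 0.07 did not pass (adjusted p = 0.0937). Arrays that do not overlap are common: in control-siRNA cells they were found for 8 of 39 members and 30.6% of all features. Psmb4 and Psmc4 were higher (14.5% of all features), and Psma2, Psmb1, Psmb3, Psmc6, Psmd1 and Psmd5 lower (16.1%). In lincRNA-siRNA cells 2 members did not overlap, against 15.1% of all features, Psma6 and Psmc4, both higher (7.92%). The median LPS change of the 6 ATPases was 0.03 in control-siRNA cells.

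The 11 non-ATPase subunits of the cap build its base and lid, which dock ubiquitin and remove it. None passed, and the median LPS changes were -0.06 and 0.05. Psmd14 read 3.75, 3.57 and 3.31 with control siRNA, 3.43, 2.57 and 3.29 after LPS, 3.46, 3.35 and 3.34 with the lincRNA siRNA, and 3.49, 3.57 and 3.28 with both. One array, the second of control siRNA with LPS, stood apart from the other 11, which ran from 3.28 to 3.75. The LPS change in control-siRNA cells, -0.45 ± 0.21, did not pass. Without that array it was -0.19. In lincRNA-siRNA cells it was 0.06 ± 0.21.

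The assembly chaperones among the names, Psmd5, Psmd9 and Psmd10, had LPS changes of -0.30, 0.11 and -0.33 in control-siRNA cells and of -0.18, 0.05 and -0.12 in lincRNA-siRNA cells. Psmd5 read 3.02, 2.84 and 2.90 with control siRNA, 2.55, 2.76 and 2.54 after LPS, 2.81, 3.35 and 3.14 with the lincRNA siRNA, and 2.99, 2.79 and 2.97 with both, so the LPS arrays of control siRNA lay below all 9 others. The alternative activators Psme3, the nuclear PA28 gamma, and Psme4, also called PA200, had changes of -0.28 and -0.10, then -0.01 and -0.02. Psmf1, which encodes the inhibitor PI31, had -0.17 and 0.14. Psmc3ip had -0.03 and 0.08.

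The second question was whether the lincRNA siRNA changed these genes. Without LPS 0 of 39 passed (limma), as did 0% of all features, and 6 members (15.4%) had an unadjusted p under 0.05, beside 18.3% of all features. Without arrays 2 and 3 of the lincRNA siRNA it was 0 of 39 by either measure, and 28 features passed. With LPS it was again 0 of 39 against 0%, with 4 (10.3%) at an unadjusted p under 0.05 beside 4.67%. In the average over both LPS states it was 0 of 39 against 0.0962%, with 11 (28.2%) beside 17.0%. The interaction gave 0 of 39 against 0%, with 1 (2.56%), Psma8, beside 3.78%.

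The estimates leaned upwards under LPS. The median log2 change of the members was 0.14 with LPS and 0.01 without, beside 0.02 and 0.06 over all features. With LPS the estimate was above 0 for 33 of 39 members, against 54.1% of all features and 61.9% of those in the members' signal range. It was above 0 for 29 of 39 with quantile normalization (median 0.06) and for 37 with the slide as a block (median 0.25). In the average it was above 0 for 32 of 39, against 57.1% of all features, for 22 with quantile normalization and for 34 with the slide as a block. Without LPS the numbers were 21, 17 and 30, against 57.1% of all features. All 11 non-ATPase subunits of the cap had an estimate above 0 with LPS, from 0.04 (Psmd6) to 0.45 (Psmd13), and so did 6 of 7 beta genes and 5 of 8 alpha genes. Array 1 of the lincRNA siRNA with LPS, which had the highest median deviation, is the only one of its group on slide 2. Without that array the median was 0.10 and 31 of 39 estimates were above 0, and without array 2 of control siRNA with LPS, which had the lowest median deviation, they were 0.09 and 32.

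Psmd13, a lid subunit, stood highest under LPS. Psmd14 had the next estimate (0.35 ± 0.21), which was 0.09 without its 1 low array of control siRNA with LPS. Psmd13 read 4.37, 4.35 and 4.27 with control siRNA, and 4.33, 4.36 and 4.12 after LPS. With the lincRNA siRNA Psmd13 read 4.47, 4.69 and 4.59, and 4.72, 4.81 and 4.61 with LPS as well. Every array of the lincRNA siRNA lay above every array of control siRNA, and how many of all features did so was not counted. The siRNA change was 0.25 ± 0.10 without LPS (limma, adjusted p = 0.259), 0.45 ± 0.10 with LPS (adjusted p = 0.903) and 0.35 ± 0.07 in the average (adjusted p = 0.125), and with the slide as a block it was 0.31, 0.45 and 0.38. None of these passed.

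Psmb5 (0.20 without LPS and 0.26 with it) and Psmc4 (0.21 in both) also had no overlap between the siRNAs in either LPS state. The share of all features without overlap in both states was not counted, so these genes cannot be called unusual for it. With LPS 8 members had no overlap between the groups' arrays, all higher with the lincRNA siRNA (11.3% of all features, 7.36% higher): Psmb3, Psmb5, Psmc4, Psmd5, Psmd7, Psmd13, Psmf1 and Psmc3ip. Without LPS it was 12 members, 10 of them higher (21.7% of all features, 12.4% higher). Psmb6 (0.40 ± 0.12, adjusted p = 0.211) and Psma8 (0.47 ± 0.15, adjusted p = 0.213) were the highest, and Psmc6 (-0.46 ± 0.14, adjusted p = 0.215) and Psme4 (-0.26 ± 0.13) the lowest. With the slide as a block these were 0.20, 0.27, -0.21 and -0.28. This comparison and the LPS comparison in control-siRNA cells share the 3 control-siRNA arrays without LPS, and Psmc6 and Psmb6 have their most extreme arrays in that group. The lowest members with LPS were Psme4 (-0.18 ± 0.13), and Psmc6 (-0.13 ± 0.14). A second Psme4 probe had siRNA changes of only -0.02 ± 0.15 without LPS and -0.04 ± 0.15 with it. Psme4 read 1.09, 1.40 and 1.28 with control siRNA, 1.24, 1.04 and 1.19 after LPS, 0.85, 1.12 and 1.02 with the lincRNA siRNA, and 0.82, 0.99 and 1.13 with both, and the groups overlapped in both LPS states.

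**Figure D4:**
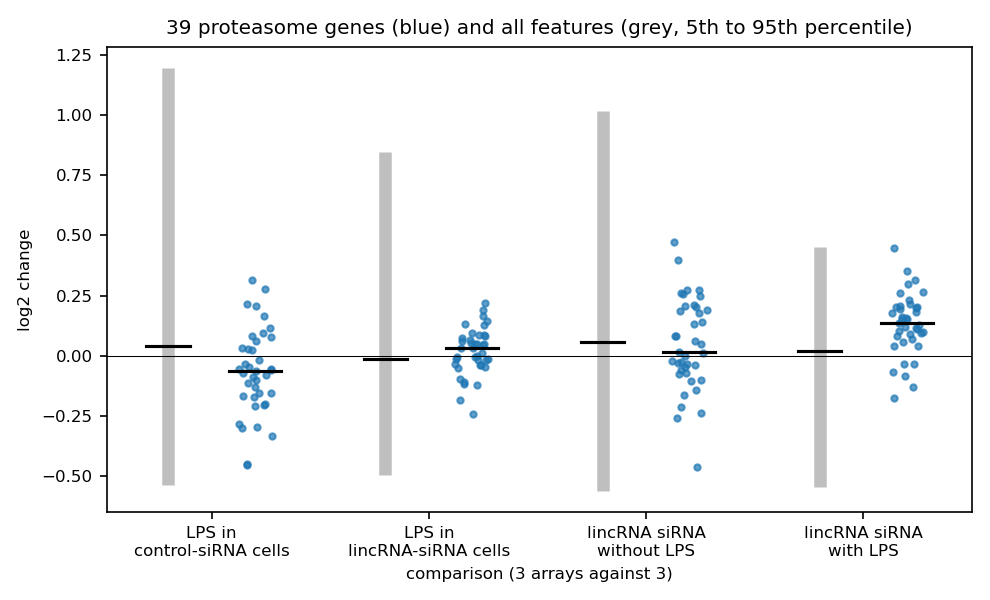
Log2 changes of 39 constitutive proteasome genes (blue points, with a line at their median) beside the 5th to 95th percentile of all features (grey bars, with a line at the median) in 4 comparisons of 3 arrays with 3. All blue points lie inside the grey bar of their comparison, and their median is highest, 0.14, for the lincRNA siRNA with LPS.

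A second probe was kept for 9 members and gave the spread between probes of 1 gene. In control-siRNA cells the 2 probes of a gene had LPS estimates of opposite sign for 3 genes (Psmc1, Psmd9 and Psmd12), in lincRNA-siRNA cells for 4 and in the average for 6. For the lincRNA siRNA the signs were opposite for 3 genes without LPS, for 0 with LPS and for 3 in the average. For Psmc1 the siRNA estimates without LPS were -0.02 and 0.40, and for Psmc2, whose 2 probes overlap on the genome, 0.26 and 0.51.

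The naming rule did not use sequence, and the promoters were read for it. RefSeq windows (GRCm38.p6) from 250 bases before to 50 bases after the annotated start were matched for 33 of 40 members (35 windows), and Psma8, Psmb1, Psmb2, Psmb7, Psmc3, Psmd3 and Psmd7 had no entry. The letters CGGAAG, the core bound by ETS family factors, were searched on both strands after the expression values had been seen. They occurred in 22 of 35 member windows (62.9%, 21 genes, with Psmb11 and Psmc3ip among them), in 16.9% of all 32851 windows, in 27.1% of windows of tested genes and in 35.3% of windows of genes in the members' signal range. The windows of the 5 inducible genes, 6 in all, held none. By class they were found for 9 of 9 non-ATPase cap subunits, 4 of 5 ATPases and 3 of 5 beta genes, Psmb11 among these. They were found for 2 of 7 alpha genes and 0 of 3 assembly chaperones. Both alternative activators (2 of 2) and Psmc3ip had them, and Psmf1 had none. Of 36 matches, 29 lay before the start, and the median position was -27 relative to it.

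The lines give the 120 bases before the start of 4 cap subunits with matches and of Psmb5, which has none, 5′ to 3′ on the strand of the gene, with CGGAAG and its reverse complement CTTCCG in capitals. They are Psmc1 (chr12:100110082-100110201, plus strand), Psmd12 (chr11:107479408-107479527, plus strand), Psmd2 (chr16:20651532-20651651, plus strand), Psmd8 (chr7:29180674-29180793, minus strand) and Psmb5 (chr14:54617996-54618115, minus strand). They are shown because Psmc1 has 3 matches and Psmd12 has 2 in these bases, while Psmd2 and Psmd8 have 1 close to the start.
Psmc1: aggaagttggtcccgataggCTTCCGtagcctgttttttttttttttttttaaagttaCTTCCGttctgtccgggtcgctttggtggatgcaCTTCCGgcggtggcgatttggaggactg
Psmd12: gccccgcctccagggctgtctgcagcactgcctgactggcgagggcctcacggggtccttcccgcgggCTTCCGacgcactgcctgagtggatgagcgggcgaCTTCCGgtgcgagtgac
Psmd2: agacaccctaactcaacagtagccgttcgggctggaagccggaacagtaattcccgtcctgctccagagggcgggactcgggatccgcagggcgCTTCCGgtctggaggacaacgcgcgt
Psmd8: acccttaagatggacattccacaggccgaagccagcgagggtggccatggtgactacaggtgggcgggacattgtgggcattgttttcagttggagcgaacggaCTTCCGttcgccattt
Psmb5: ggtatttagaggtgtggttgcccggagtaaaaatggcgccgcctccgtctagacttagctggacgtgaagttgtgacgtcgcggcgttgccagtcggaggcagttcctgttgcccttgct

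Other motifs were rarer. TGACNNNGC, the core of the antioxidant response element read by NRF factors, occurred in 17.1% of member windows (6 genes: Psmb5, Psmb6, Psmc6, Psmd9, Psmd12 and Psme4) and 12.4% of all windows (13.9% of tested genes, 14.7% in the signal range), and in none of the 6 inducible ones. An interferon response element (GAAA, any 2 bases, GAAA) occurred in 8.57% (Psmb3, Psmd4 and Psmd9) against 3.44% (3.15% and 2.88%), and in 1 inducible window, that of Psme1. TTCNNNGAA, a STAT site, occurred in 2.86% (Psmd2) against 8.30% (7.36% and 6.83%), and in the window of Psmb8. A match is a description of these letters in this window.

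Of the lists of genes that serve the proteasome, only regulators and antigen processing genes passed in a single siRNA state, and 1 shuttle in the average over both. Of 8 tested assembly chaperones 0 passed with LPS in either siRNA state (limma), with estimates in control-siRNA cells from -0.33 (Psmd10) to 0.33 (Psmg2). Of 15 shuttles and associated proteins 0 passed in either state, from -0.52 (Txnl1) to 0.44 (the ubiquitin receptor Adrm1). In the average over both siRNAs, Txnl1, a thioredoxin-like protein of the cap, fell by 0.53 (adjusted p = 0.0186), a call lost under the slide block (adjusted p = 0.397) and without array 2 of control siRNA or array 3 of control siRNA with LPS (adjusted p = 0.0503 and 0.0508). Of 13 genes of ubiquitin and its activation and extraction 0 passed in either state, with a lowest control-siRNA estimate of -0.15 (Ube2d3), and of 6 cytosolic peptidases 0, from -0.14 (Blmh) to 0.20 (Erap1).

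Among 8 tested regulators of proteasome genes, Maff and Mafk, small Maf proteins that pair with NRF factors, rose with LPS in both siRNA states. Maff rose by 1.13 in control-siRNA cells (adjusted p = 0.000157) and by 1.07 in lincRNA-siRNA cells (adjusted p = 0.000414), and the slide block gave adjusted p = 0.0107 and 0.00889. Within slide 2 alone these were 0.0659 and 0.0548. In the average over both siRNAs Maff passed under every alternative run. Mafk rose by 0.47 (adjusted p = 0.0257) and 0.61 (adjusted p = 0.0127), and by 0.54 in the average (adjusted p = 0.00115). The slide block ended these calls (average 0.45, adjusted p = 0.0583). The call in control-siRNA cells was also lost without control siRNA 1 or 2 or control siRNA with LPS 2 or 3 (adjusted p = 0.0721 to 0.108), and that in lincRNA-siRNA cells without LPS array 2 or 3 (adjusted p = 0.0520 to 0.0615). Without arrays 2 and 3 of the lincRNA siRNA both just missed the threshold (0.47, adjusted p = 0.0501, and 0.71, adjusted p = 0.0525), and the average was 0.59 (adjusted p = 0.00768). Nfe2l1, which drives proteasome genes when the particle is inhibited, had a change of 0.12 in the average (adjusted p = 0.356), and Nfe2l2 of -0.29 (adjusted p = 0.0925). Maff was also higher with the lincRNA siRNA in the average over LPS states (0.49, adjusted p = 0.0429), a call lost under the slide block (adjusted p = 0.219) and without any 1 of 10 arrays, all except array 3 of control siRNA and array 1 of the lincRNA siRNA (adjusted p = 0.0701 to 0.165).

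Of 9 interferon-induced antigen processing genes, 3 rose with LPS in control-siRNA cells (Psmb10, Tap1 and Tapbp) and 2 in lincRNA-siRNA cells (Tap1 and Tapbp). Tap1, a subunit of the peptide pump fed by the proteasome, rose by 1.92 (adjusted p = 0.00305) and 1.62 (adjusted p = 0.0144), with 2.16 and 1.61 under the slide block (adjusted p = 0.0734 and 0.235). The second of these calls was also lost without LPS array 1 or 2 of that siRNA (adjusted p = 0.0559 to 0.0676). Tapbp, the tapasin that holds class I molecules at the pump, rose by 0.85 (adjusted p = 0.00706) and 0.66 (adjusted p = 0.0451), and leaving out any 1 of 11 of the 12 arrays ended the second call, all except array 3 of the lincRNA siRNA without LPS (adjusted p = 0.0668 to 0.176). Under the slide block the changes were 0.85 and 0.56, and neither passed (adjusted p = 0.171 and 0.631). In control-siRNA cells the change stayed between 0.81 and 0.91 under all 24 alternatives.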

How the data were processed

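Spot intensity values came, per the file headers, from Agilent Feature Extraction 10.7.1.1, and were deposited background-subtracted and detrended within each array. The authors' deposited log2 value table, for which no normalization is stated in the labels, served as an alternative. Processed signals were taken as log2 minus the 75th percentile of the array, averaging spots of a probe. Probes had to exceed background clearly on each of the 3 arrays of some group (33157 kept, 59.5%), with 1 per gene, that of highest mean. Group means were fitted to 12 arrays with limma 3.58.1 in R 4.3.3 (8 residual degrees of freedom), Benjamini-Hochberg adjusted over 23913 features, threshold 0.05. The code was tested on simulated data. Members, lists and motifs were chosen with earlier results of these data known. Given on every array were members that passed, the 2 highest and 2 lowest of each group comparison and the catalytic subunits; of each list, the highest and the lowest gene, of which 1 is not reported here. Psmb1, Psmb4, Psmd10 and other genes outside that rule were named after their values were seen. Deviations of same-numbered arrays had correlations of -0.30 to 0.47 over 18 pairs, 8 above 0.1, so some shared deviation is possible. Numbers were not taken as pairs in the main fit, and the replicate number as a block is among the alternatives. The closing section gives the effect of the alternatives.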

Additional observations from a re-analysis of the deposited data

How the results depend on the processing

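Each result was recomputed under 24 alternatives: background correction, scaling, probe filter and probe rule, slide, replicate number, the authors' value table, each array left out in turn, and 2 pairs of arrays left out, the last chosen after seeing the data. The count of constitutive genes past the threshold stayed at 0 in 164 of 168 recomputed counts. The other 4 came from leaving out array 3 of control siRNA, which leaves that group on slide 1 alone. Leaving out 1 array at a time, the counts ranged from 0 to 1 for LPS in control-siRNA cells and for LPS in the average (Psmc6, lower), from 0 to 3 for the lincRNA siRNA without LPS (Psma8 and Psmb6 higher, Psmc6 lower) and from 0 to 2 for its average (Psmb6 and Psmd13 higher). Of all features, 16.2%, 14.8%, 9.86% and 6.15% passed without that array, in the order LPS in control-siRNA cells, LPS in the average, lincRNA siRNA without LPS and its average. The cause was not tested. The median change of the 39 genes ran from -0.11 to -0.03 for LPS in control-siRNA cells, from 0.06 to 0.25 for the lincRNA siRNA with LPS and from -0.02 to 0.06 for it without LPS.

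The pair differences ranged from 0.54 to 1.08 (Psmb8 minus Psmb5), 0.54 to 1.05 (Psmb9 minus Psmb6) and 0.64 to 1.06 (Psmb10 minus Psmb7). Within slide 2 alone, where 16 arrangements cannot reach the threshold, they were 0.84 (exact p = 0.125), 0.81 (exact p = 0.188) and 0.82 (exact p = 0.0625). With the replicate block Psmb8 minus Psmb5 was 0.72 (exact p = 0.0625) and Psmb10 minus Psmb7 was 0.84 (exact p = 0.0938). That block changed no count of constitutive genes, and 5 of 12 arrays correlated best with an array of their own number. Over all features, 1611 passed with it for LPS in control-siRNA cells (1257 without it) and 2399 for LPS in the average (1981). Fewer passed for LPS in lincRNA-siRNA cells (389, against 433) and for the lincRNA siRNA in the average (19, against 23). Leaving out 1 array at a time, Psmb10 minus Psmb7 ranged from 0.74 to 0.95, and it was 0.64 (exact p = 0.05) without arrays 1 and 2 of control siRNA. The slide as a block was not run for the pairs, since it exchanges the same arrays as slide 2 alone. Of the values of single genes, 28 changed sign without passing, and 4 passed without array 3 of control siRNA. Over all features, 1257 passed for LPS in control-siRNA cells, 230 with the slide as a block and 3864 without array 3 of control siRNA. The small number of arrays, their layout over slides, arrays 2 and 3 of the lincRNA siRNA and, for Psma8, a dim probe limit these results.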
